A study of Mus musculus with 6 samples.

Results

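Transcripts of 9 transcription factors that maintain neural stem cells, Sox1, Sox2, Sox9, Pax6, Nr2e1, Emx2, Lhx2, Nfix and Foxo3, were measured in precursor cells from the adult mouse hippocampus after exposure to human LDL, the lipoprotein that carries most cholesterol in human blood. The 9 genes were picked by symbol, as factors known to keep stem and precursor cells of the adult hippocampus undifferentiated or quiescent, among 21368 genes that could be named on the array. They were read by 12 of its 55681 probes. Probes were named, where a match was found, through the RefSeq accession that the array files give for it. The precursor cells were isolated from the dentate gyri of male C57BL6/JRj mice 8 weeks old and grown as an attached layer in medium with 20 ng/ml each of EGF and bFGF, mitogens that both groups received throughout. The saline group (n = 3 arrays) received saline and the LDL group (n = 3 arrays) received human LDL, both for 48 h. The treatment protocol gives the LDL dose as 100 ug/ml, but the sample descriptions write another unit of volume, so the unit is uncertain. The 3 replicates of each group came from independent experiments on different passages. The sources used here do not say whether those passages go back to separate isolations of cells, so the spread between arrays may not include the spread between mice.

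Neural stem cells stay undifferentiated through a network of transcription factors rather than through 1 master gene. Sox1 and Sox2 belong to the SOXB1 family and hold precursor identity by opposing the genes of neuronal differentiation, while Sox9 is tied to stem cell formation and to the glial programme. Pax6, Emx2 and Lhx2 are homeobox genes that pattern the embryonic cortex and hippocampus and stay on in adult precursors. Nr2e1, also known as TLX, is an orphan nuclear receptor that keeps adult stem cells dividing, and Nfix and Foxo3 are linked to stem cell quiescence and to their long-term maintenance.

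Each sample was hybridised to a 1-colour Agilent array, so each value is the brightness of a probe. Values are given as the normalized log2 signal, the processed signal on the log2 scale after the array's own 75th percentile is taken off, so 0 stands for that percentile. Brightness also depends on the sequence of a probe, and levels of different genes were therefore not ranked against each other. The share of probes well above background ran from 55.9% to 66.9% over the arrays, and no spot was saturated. In the cultures, 13 of 16 oligodendrocyte markers and 14 of 15 astrocyte markers met the filter on dim probes, which asks for a signal well above background on all 3 arrays of a group. Of the neuron markers 9 of 16 met it, of the microglia markers 9 of 16 and of the vascular markers 6 of 16. Over all features with values on at least 2 arrays of each group, 24213 of 36709 met it. Counts near that share say little about which cell types were present. The 7 neuron markers that did not meet it, among them Dcx, the marker of young neurons, were well above background on no array.

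All 9 factors were expressed in the cultures and none of them passed the test for a difference after LDL. Each was well above background on all 3 saline and all 3 LDL arrays. With limma, 0 of the 9 passed an adjusted p of 0.05, against 0.136% of the 24213 features tested (33, of which 5 or 0.0207% were higher and 28 or 0.116% lower), and 0 of the 9 had an unadjusted p under 0.05, against 7.49% of all features. For 0 of the 9 did the saline and LDL values separate without overlap, as 14.6% of all features did. The log2 fold changes of LDL over saline lay between -0.24 for Foxo3 and 0.077 for Sox9, with 7 negative and 2 positive, and the median over the 9 was -0.062. Across all features the median was -0.027, and 56.3% were negative. The 95% intervals of all 9 held 0, and together they ran from 0.652-fold, for Pax6, to 1.38-fold, for Lhx2. These intervals are not adjusted for the number of features. In RNA from whole cultures, fewer cells that express a factor and less RNA of it per cell cannot be told apart.

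**Figure D1:**
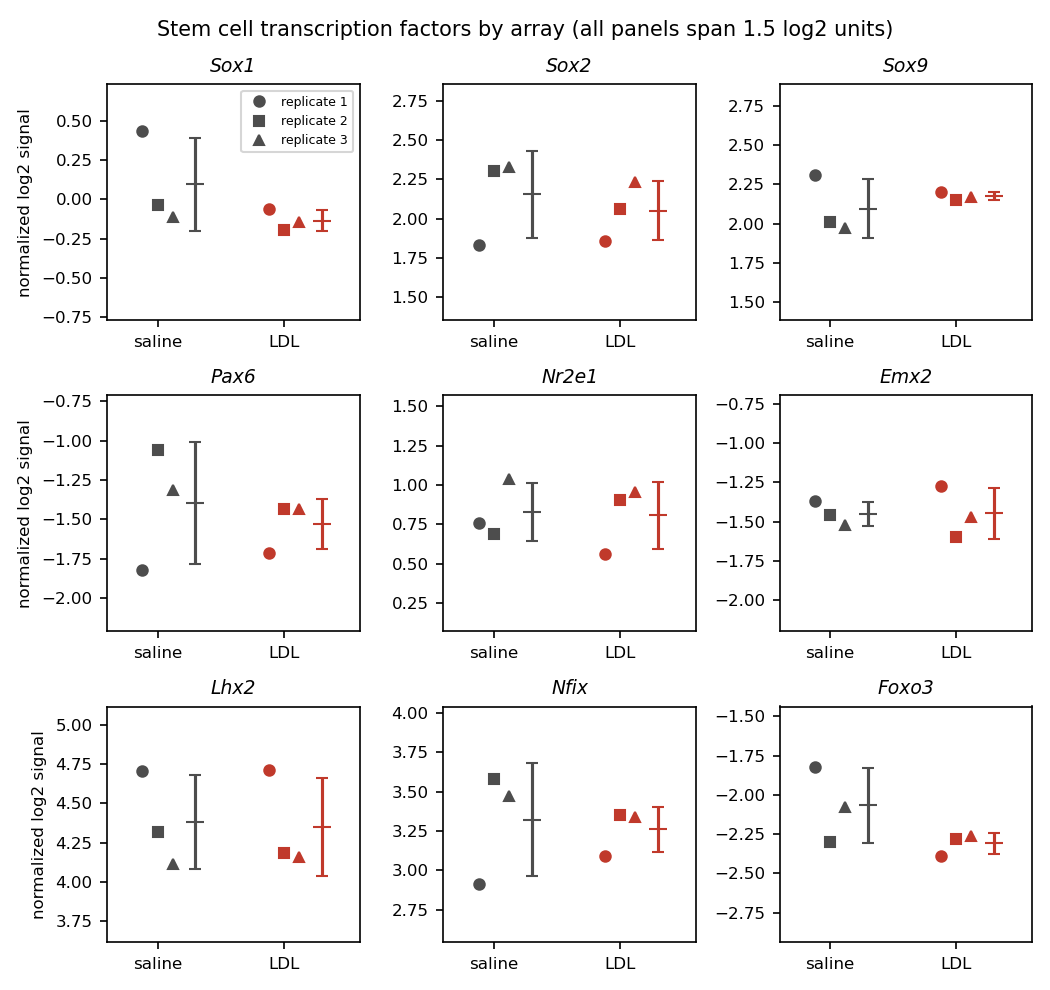
Normalized log2 signal of each factor (vertical axis, spanning 1.5 log2 units in every panel) on the 3 saline and the 3 LDL arrays, with the mean and SD of each group beside the points and replicate numbers shown by shape. The groups overlap in all 9 panels, and replicate 1 (circles) is often the highest or lowest of its group.

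Among the SOXB1 factors, Sox2, a core factor of neural stem cell identity, had normalized log2 signals of 1.84, 2.30 and 2.33 on saline replicates 1 to 3. With LDL the values were 1.86, 2.06 and 2.23. Replicate 1 was the lowest array in both groups, and the LDL arrays lay within the saline range. The means were 2.15 ± 0.28 with saline and 2.05 ± 0.19 with LDL (SD, n = 3 each), a log2 fold change of -0.10 (SE 0.17, 95% interval -0.51 to 0.30, adjusted p = 0.935 in limma). Without saline replicate 1 it was -0.26 and without LDL replicate 1 it was -0.0064, so its size rested on single arrays, though its sign held with every array left out.

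Sox1, the SOXB1 gene most restricted to neural precursors, had 0.44, -0.035 and -0.11 with saline and -0.061, -0.20 and -0.14 with LDL. Saline replicates 1 and 2 lay above all LDL arrays, replicate 2 by a small margin, and replicate 3 lay among them. The means were 0.096 ± 0.30 and -0.13 ± 0.069, a log2 fold change of -0.23 (SE 0.16, 95% interval -0.61 to 0.15, adjusted p = 0.821). Without saline replicate 1 the value was -0.059. A dimmer Sox1 probe, to the same RefSeq transcript, gave -2.04, -2.34 and -2.08 with saline and -2.49, -2.40 and -2.29 with LDL. Its difference of -0.24 on the log2 scale (95% interval -0.53 to 0.050, adjusted p = 0.784 over all probes) had the same sign and nearly the same size, and here saline replicate 2 lay among the LDL arrays.

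The bases just before the start sites of Sox1 and Sox2 are shown because these are the 2 SOXB1 genes of the set, whose windows can be compared. Each sequence is the 250 bases before the RefSeq start (build GRCm38.p6), read 5′ to 3′ on the strand of the gene, with GC boxes (GGGCGG or its reverse complement) in capitals. The Sox2 window is chr3:34649745-34649994 on the plus strand and the Sox1 window is chr8:12395269-12395518 on the plus strand.
Sox2: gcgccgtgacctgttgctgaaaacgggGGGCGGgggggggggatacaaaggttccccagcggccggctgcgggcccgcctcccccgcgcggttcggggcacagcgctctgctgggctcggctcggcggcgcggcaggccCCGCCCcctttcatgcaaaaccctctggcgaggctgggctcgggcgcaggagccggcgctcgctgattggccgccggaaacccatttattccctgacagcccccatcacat
Sox1: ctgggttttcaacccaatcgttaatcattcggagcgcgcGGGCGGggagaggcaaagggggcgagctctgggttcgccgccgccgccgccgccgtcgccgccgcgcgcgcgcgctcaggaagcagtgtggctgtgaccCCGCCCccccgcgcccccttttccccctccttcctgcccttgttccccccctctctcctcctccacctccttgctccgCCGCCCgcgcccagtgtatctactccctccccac
The Sox2 window held 27 CpG pairs with a GC content of 72.0%, and the Sox1 window held 29 with 71.2%, against a median of 6 CpG pairs over the 32851 starts in the RefSeq promoter table.

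Sox9, an SOXE factor of stem cell and astroglial identity, was read by 10 spots of 1 probe on each array, which makes it the most densely measured of the set. It had 2.31, 2.01 and 1.97 on saline replicates 1 to 3 and 2.20, 2.15 and 2.17 on LDL replicates 1 to 3. The LDL arrays lay close together, inside the wider range of the saline arrays. Of the 60 spots 8 carried an outlier flag and were left out, and the SD between the spots of one array ran from 0.049 to 0.11. The SD between arrays was 0.19 with saline and 0.025 with LDL. It was taken over array means of 8 to 10 spots, so it cannot be set directly against the SD of single spots. The means of 2.10 and 2.17 gave a log2 fold change of 0.077 (SE 0.12, 95% interval -0.21 to 0.36, adjusted p = 0.926). Leaving out saline replicate 1 gave 0.19 and leaving out saline replicate 3 gave 0.014.

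Of the homeobox factors, Pax6, which drives cortical radial glia and early neuronal commitment, had the widest spread over the saline arrays. Its signals were -1.82, -1.06 and -1.31 with saline and -1.71, -1.44 and -1.44 with LDL. Replicate 1 was the lowest in both groups, and the 3 LDL arrays fell within the saline range. This Pax6 probe has 2 spots on each array, and on saline replicate 1 they disagreed. Their SD was 0.43 there, against 0.011 to 0.19 on the other arrays. LDL differed from saline by -0.13 on the log2 scale (SE 0.20, 95% interval -0.62 to 0.35, adjusted p = 0.925). Without saline replicate 1 it was -0.35, and without saline replicate 2 it turned to 0.036. A 2nd, much dimmer Pax6 probe was well above background on 1 saline and 1 LDL array only and was not tested.

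Emx2, a homeobox gene needed for the formation of the dentate gyrus, had -1.37, -1.46 and -1.52 with saline and -1.27, -1.60 and -1.47 with LDL. Replicate 1 was the highest in both groups, and the saline range lay within the LDL range. The difference of the means was 0.0016 on the log2 scale (SE 0.12, 95% interval -0.27 to 0.28, adjusted p = 0.998), from -0.084 to 0.076 with 1 array left out. Lhx2, a LIM homeobox gene of the cortical and hippocampal primordium, had 4.70, 4.32 and 4.12 with saline and 4.71, 4.19 and 4.16 with LDL. Here too replicate 1 was the highest array of each group, and the other arrays of both groups lay together. The log2 fold change of Lhx2 was -0.029 (SE 0.21, 95% interval -0.52 to 0.46, adjusted p = 0.987), and leaving out 1 array moved it between -0.21 (LDL replicate 1) and 0.13 (saline replicate 1).

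Nr2e1, the receptor that sustains self-renewal of adult stem cells, had 0.76, 0.69 and 1.04 with saline, and with LDL 0.56, 0.91 and 0.96. The highest array was saline replicate 3 and the lowest was LDL replicate 1, with the other 4 arrays between them. The means of 0.83 ± 0.19 and 0.81 ± 0.21 gave a log2 fold change of -0.022 (SE 0.15, 95% interval -0.38 to 0.34, adjusted p = 0.986). It ranged from -0.095 without LDL replicate 3 to 0.10 without LDL replicate 1. Scaling each array to its median instead of its 75th percentile turned the sign of Nr2e1 to 0.018 and that of Lhx2 to 0.010.

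Nfix, a nuclear factor I gene that promotes stem cell quiescence and survival of new hippocampal neurons, had 2.91, 3.58 and 3.47 with saline and 3.09, 3.35 and 3.34 with LDL. Replicate 1 was the lowest array of each group, and the LDL arrays lay within the saline range. On the log2 scale LDL differed from saline by -0.062 (SE 0.19, 95% interval -0.51 to 0.39, adjusted p = 0.967), with -0.27 without saline replicate 1 and 0.066 without saline replicate 2. A dimmer probe to another Nfix RefSeq transcript gave 0.99, 1.46 and 1.09 with saline and 0.73, 1.24 and 1.15 with LDL. Its log2 fold change was -0.14 (95% interval -0.58 to 0.29, adjusted p = 0.919 over all probes), so the 2 Nfix probes had the same sign and overlapping intervals.

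Foxo3, a forkhead factor held out of the nucleus by growth factor signalling and required to preserve the stem cell pool, had -1.82, -2.30 and -2.08 with saline and -2.39, -2.28 and -2.26 with LDL. Of the saline arrays, replicates 1 and 3 were above all LDL arrays and replicate 2 was among them. The means were -2.07 ± 0.24 and -2.31 ± 0.067, a log2 fold change of -0.24 (SE 0.14, 95% interval -0.57 to 0.089, adjusted p = 0.774), the lowest value of the set. It was -0.12 without saline replicate 1 and -0.36 without saline replicate 2, negative in each fit. Its adjusted p of 0.297 without saline replicate 2 was the smallest that any of the 9 factors reached in any setting with a test, and the largest adjusted p over the settings rounded to 1.00 for each of them. Exact two-sided permutation tests of 3 arrays against 3, which cannot go below p = 0.1, gave between p = 0.2, for Sox1, and p = 1, for Nr2e1, Emx2 and Lhx2, with p = 0.3 for Foxo3.

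The window before the start of Foxo3 is shown because this gene had the lowest fold change of the set, and it is chr10:42276696-42276945 on the minus strand, drawn and marked as for the SOX genes. Foxo3 and Nr2e1 are neighbours on the same chromosome in the RefSeq gene order, with 3 genes between them, of which Afg1l and Snx3 code for proteins.
Foxo3: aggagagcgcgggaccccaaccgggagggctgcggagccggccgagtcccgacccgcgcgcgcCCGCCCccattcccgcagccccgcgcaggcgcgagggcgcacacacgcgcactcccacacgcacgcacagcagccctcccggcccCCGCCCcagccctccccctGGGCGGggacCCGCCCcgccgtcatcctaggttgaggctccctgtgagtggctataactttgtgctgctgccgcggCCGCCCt
The Foxo3 window held 31 CpG pairs and 5 GC boxes. The promoter table had 13 starts for 8 of the 9 factors, and 9 of these windows held at least 15 CpG pairs, against 27.3% of all starts. At least 1 GC box (GGGCGG) stood in 6 of the 13 windows, belonging to Emx2, Foxo3, Lhx2, Nfix, Sox1 and Sox2, against 32.7% of all starts. The sterol element bound by SREBP (TCACNCCAC) was in 0 of the 13 windows and in 1.05% of all starts, a FOXO site (GTAAACA) in 0 and 3.17%, a SOX2 site (CATTGTT) in 0 and 3.29%, and a TATA box (TATAAA) in 0 and 12.4%. A CCAAT box (CCAAT) stood in 7 of the 13 windows, belonging to Emx2, Nfix, Pax6, Sox1 and Sox2, against 33.8% of all starts. Both strands were searched in windows of 250 bases and matches could overlap. A match or its absence describes the letters of these windows only.

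**Figure D2:**
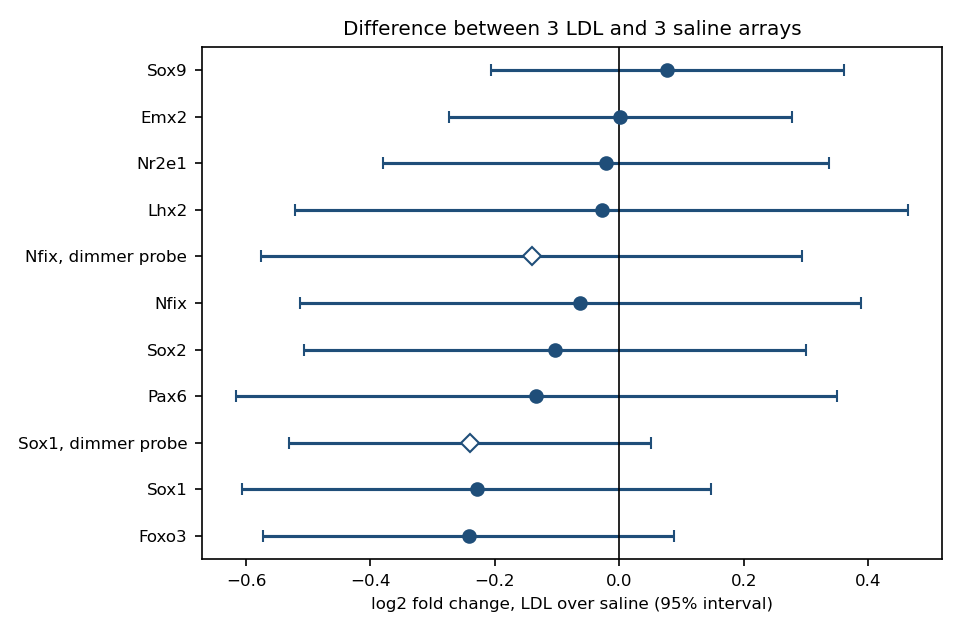
Log2 fold change of LDL over saline (horizontal axis) with its 95% interval for the 9 factors, with open diamonds for the dimmer probes of Sox1 and Nfix. Every interval crosses 0, from Foxo3 at -0.24 to Sox9 at 0.077.

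Among the 9 factors, the replicate 1 arrays were often at an end of their group. Saline replicate 1 was the highest or lowest saline array for 8 of the 9 factors (all except Nr2e1). The same held for 75.3% of the 24166 features with a value on every array, over which the next shares are counted too. Saline replicate 2 was at an end for 4 of the 9 factors and for 76.9% of all features. Over all features, replicate 1 was thus not the array most often at an end of the saline group. Saline replicate 2 also had the smallest share of probes well above background, 55.9% against 66.5% and 66.9% on the other saline arrays. LDL replicate 1 was at an end of its group for 9 of the 9 factors and for 78.4% of all features. For 7 of the 9, replicate 1 was at the same end in both groups, the highest for Sox1, Sox9, Emx2 and Lhx2 and the lowest for Sox2, Pax6 and Nfix, while 36.1% of all features had replicate 1 at the same end in both groups. For Foxo3 the 2 arrays lay at opposite ends, with replicate 1 the highest saline array and the lowest LDL array. The SD was larger with saline than with LDL for 6 of the 9 factors, the exceptions being Nr2e1, Emx2 and Lhx2, and for 75.8% of all features. The median SD of the 9 was 0.28 with saline and 0.16 with LDL, against 0.19 and 0.10 over all features. The part of these array differences in the fold changes was measured only by leaving arrays out. A block for the replicate number leaves the fold changes as they are but changes the intervals. Under it the interval of Lhx2 was -0.29 to 0.23, against -0.52 to 0.46 without it. The intervals of Sox9 and Foxo3 became wider and those of the other factors narrower, and all 9 still held 0.

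**Figure D3:**
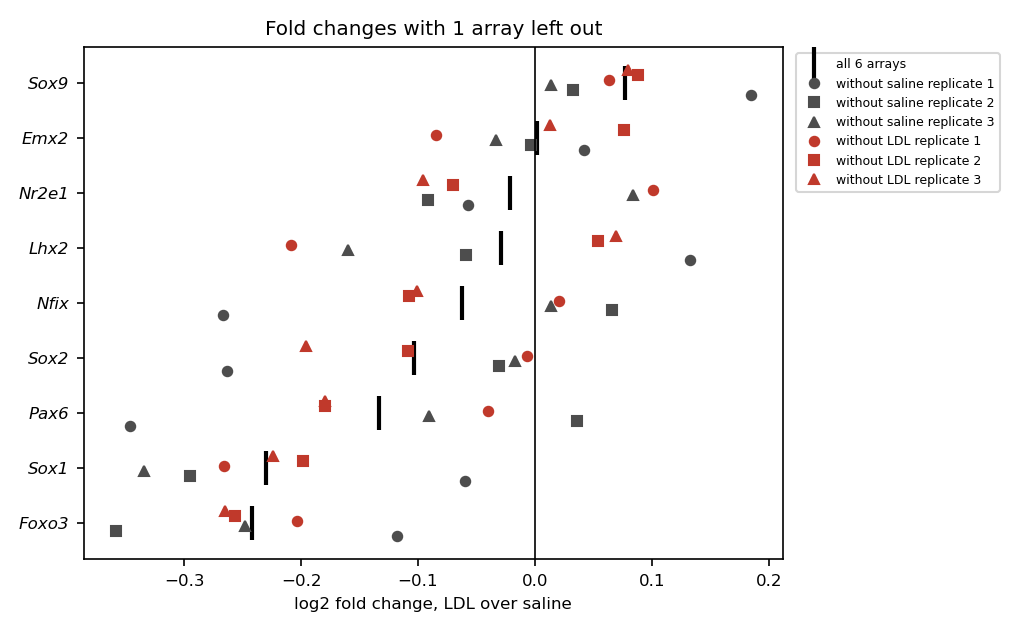
Log2 fold change of LDL over saline (horizontal axis) for each factor with all 6 arrays (black bar) and with each array left out in turn (points, grey for saline and red for LDL arrays). Leaving out saline replicate 1 (grey circles) moved Pax6 from -0.13 to -0.35 and Sox1 from -0.23 to -0.059, while Foxo3, Sox1 and Sox2 stayed below 0 and Sox9 above it.

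The paralogs of the 9 factors did not pass either, with 0 of 12 measured members called (0.136% of all features) and 2 with an unadjusted p under 0.05 (7.49% of all features). Of these 12, 11 had negative values (56.3% of all features were negative), with a median log2 fold change of -0.12, and 4 had groups that did not overlap, all with lower LDL arrays, against 8.79% of all features in that direction. Sox8, an SOXE gene like Sox9, had 0.95, 1.32 and 1.22 with saline and 0.18, 0.63 and 0.87 with LDL, so all LDL arrays were below all saline arrays. Its log2 fold change was -0.61 (95% interval -1.07 to -0.14, adjusted p = 0.534). Sox10, the third SOXE gene and a factor of the oligodendrocyte lineage, had 0.062 (-0.092 without saline replicate 2).

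Sox3, the remaining SOXB1 gene, had 6.31, 6.02 and 5.66 with saline, and with LDL 5.64, 5.67 and 5.65. The LDL arrays were nearly equal and saline replicate 3 lay among them, and the log2 fold change was -0.35 (95% interval -0.74 to 0.047, adjusted p = 0.715), or -0.19 without saline replicate 1. In the nuclear factor I family the values were -0.28 for Nfia, -0.13 for Nfib and -0.099 for Nfic. Without LDL replicate 1 Nfia had -0.17, and without saline replicate 1 Nfib had -0.064. Of these, Nfib had 4 further probes with values between -0.17 and 0.012, and Nfic was -0.0069 without LDL replicate 1. In the FOXO family Foxo6 had -0.36 (adjusted p = 0.611), with lower signals on all LDL arrays, and Foxo1 -0.066, while Foxo4 was well above background on 1 array only. The nuclear receptors related to Nr2e1 had -0.20 for Nr2f2, -0.11 for Nr2f1 and -0.088 for Nr2f6, and groups did not overlap for Nr2f2 and Nr2f1. Without LDL replicate 1 Nr2f1 had -0.046, and without saline replicate 2 Nr2f6 had -0.018. Pax8 had -0.082, or -0.040 without saline replicate 3. Emx1, Lhx9, Nr2e3 and Pax4 did not meet the background filter.

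Of 5 noncoding transcripts sought at the loci of the factors, 3 had a named probe, and these gave little signal. Emx2os, which lies antisense to Emx2, differed by 0.12 on the log2 scale (95% interval -0.49 to 0.72) and was -0.16 without saline replicate 2, and Sox1ot had 0.032 (-0.080 without saline replicate 1). Pax6os1 was well above background on no array. Sox2ot and Lhx2os had no named probe and were not measured.

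A wider list of 22 factors of neural precursors, 21 of them measured, also had 0 called, against 0.136% of all features, and 5 had an unadjusted p under 0.05, against 7.49%. Its median was -0.20, with 15 negative and 6 positive values, and it moved to between -0.16 and -0.047 with 1 array left out, the smallest without LDL replicate 3. Hopx, a marker of quiescent dentate stem cells, had -1.16, -1.63 and -1.32 with saline and -0.60, -0.93 and -0.85 with LDL. All LDL arrays were above all saline arrays, as for 5.84% of all features, and the log2 fold change was 0.58 (95% interval 0.21 to 0.94, adjusted p = 0.474), with a 2nd probe at 0.58. Hopx was the only factor of this list separated in that direction. For 4 of the 21 all LDL arrays were below all saline arrays, against 8.79% of all features. Mycn had -0.65 (adjusted p = 0.568) but -0.18 with normexp background correction and quantile normalization. The 2 probes of Zic1 disagreed, with -0.25 and 0.16.

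Factors of the neuronal and oligodendroglial lineages had 0 of 12 measured members called (0.136% of all features), and 3 had an unadjusted p under 0.05 (7.49% of all features). Their median of -0.19 was -0.078 without saline replicate 2. The smallest p belonged to Bcl11b, a zinc finger factor of neurons, with -0.67 (95% interval -1.02 to -0.32, adjusted p = 0.341). Neurog2, a proneural gene, had -0.36, and Eomes, the gene of intermediate progenitors, had -0.31. For these 3 all LDL arrays were below all saline arrays, as for 8.79% of all features, but their signals were dim and the values with normexp and quantile normalization were -0.31, -0.16 and -0.13. Prox1, the granule neuron factor, had 0.37 (adjusted p = 0.669), or 0.23 without saline replicate 1. Olig2, named after its value was seen, had -0.061 (95% interval -0.35 to 0.23), or 0.0086 without LDL replicate 1.

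Targets known for Foxo3 in other cells had 0 of 20 called (0.136% of all features) and 4 with an unadjusted p under 0.05 (7.49% of all features). The median was -0.051, with 13 negative and 7 positive values, and lay between -0.082 without saline replicate 3 and -0.022 without LDL replicate 2. The members with the smallest p lay on both sides of 0. Sesn3, a stress-response sestrin, had 1.64, 1.72 and 1.66 with saline and values of 0.94, 1.32 and 1.34 with LDL, a log2 fold change of -0.47 (adjusted p = 0.488), and Cdkn1c, a cyclin-dependent kinase inhibitor, had -0.34. Gabarapl1, an ATG8 gene of autophagy, had 4.81, 4.70 and 4.56 with saline and values of 5.35, 5.03 and 5.05 with LDL, a log2 fold change of 0.45 (adjusted p = 0.494), and Cited2 had 0.56 with a 2nd probe at 0.30. In all 4 the groups did not overlap, as in 5 of the 20 targets and in 14.6% of all features. The cell cycle inhibitor Cdkn1b and the superoxide dismutase Sod2, named after their values were seen, had -0.049 and 0.069, or 0.018 without LDL replicate 2 and 0.0077 without saline replicate 3.

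Of 17 measured genes reported as targets of the other factors, 1 passed (0.136% of all features) and 3 had an unadjusted p under 0.05 (7.49% of all features). The median of 0.0036 had no stable sign, with -0.040 without saline replicate 1 and 0.054 without saline replicate 3. Gfap, an intermediate filament of radial glia-like stem cells and astrocytes, had -3.26, -3.47 and -3.63 with saline and -2.25, -2.01 and -2.05 with LDL. It rose by 1.35 on the log2 scale (95% interval 1.04 to 1.66, adjusted p = 0.0215), but its 2nd probe had 0.15 and the mean over both did not pass (0.75, adjusted p = 0.307). The call was also lost with the replicate number as a block (adjusted p = 0.117), with a slide row block (0.0704), with no background filter (0.165), in slide row 1 (0.727) and when any array except saline replicate 1 was left out (0.0737 to 0.160). The log2 fold change was still 1.35 in both block fits and with no filter, settings that leave a fold as it is by construction. It was 1.24 in slide row 1 and 1.26 to 1.42 with those arrays left out. The signals of this Gfap probe were dim, and with normexp background correction and quantile normalization its value was 0.96 (adjusted p = 0.00876 in limma). Tnc, an extracellular matrix gene of the stem cell niche, had 0.66 (adjusted p = 0.473 in limma). Slc1a3, a glutamate transporter of radial glia, had -0.33 (adjusted p = 0.511 in limma). The groups did not overlap in either, as in 4 of the 17 genes and in 14.6% of all features. Among genes tied to Nr2e1, Sirt1 had -0.30. Of those named after their values were seen, Cdkn1a had 0.28 (0.15 without LDL replicate 1) and Wnt7a had 0.071 (-0.13 without saline replicate 1). Nes and Egfr had 0.22 and -0.17, and without LDL replicate 1 they had 0.049 and -0.10. Astrocyte markers had a median of -0.21 over 14 measured genes with 10 negative. Over all features the median was -0.027 and 56.3% were negative. With 1 array left out the astrocyte median lay between -0.28 and -0.18. Gfap, Slc1a3, Slc1a2 and Fgfr3 are in both this marker list and the list of targets. The summed processed signal of the astrocyte markers was not normalized between arrays. It ran from 179685 to 217590 on saline arrays and from 184171 to 213775 on LDL arrays. The 75th percentile of the arrays also differed, from 730 to 947 with saline and from 843 to 962 with LDL. The sums therefore cannot be set against the normalized median. Medians of the other cell type lists were -0.025 for neuron, -0.041 for oligodendrocyte, -0.097 for microglia and -0.054 for vascular markers. Single arrays moved them. The neuron median was -0.20 without LDL replicate 1 but 0.047 when saline replicate 1 was dropped, and the oligodendrocyte median was -0.14 and 0.0074 when saline replicate 1 and LDL replicate 1, in that order, were dropped. Dropping saline replicate 2 gave -0.14 for microglia and -0.13 for vascular markers, while the values nearest 0 were -0.011 for microglia (saline replicate 3 dropped) and -0.024 for vascular markers (saline replicate 1 dropped).

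**Figure D4:**
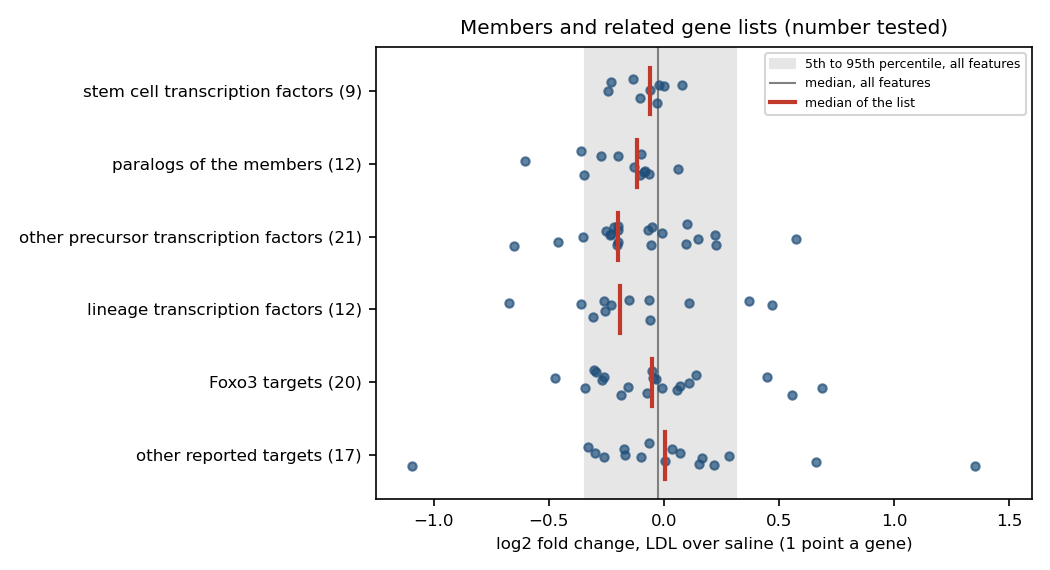
Log2 fold change of LDL over saline for each measured gene (points) of the 9 factors and of 5 related lists, with the median of each list in red and the range from the 5th to the 95th percentile of all features, -0.34 to 0.31, in grey. All 9 factors lie inside the grey range, and the point at 1.35 is Gfap.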

How the data were processed

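Cyanine-3 cRNA from 100 ng of total RNA was hybridised to 6 arrays on 1 slide, per the labels' protocols. The deposited scanner values are intensity values; per the file headers, Agilent Feature Extraction 10.7.3.1 subtracted background and detrended each array. The authors also deposited log2 values, aligned between arrays by a method not given in the sources used here (column medians 6.67 to 6.68), used as an alternative. The submitters' processing notes list R 3.4.4 and limma 3.34.9.

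Control and outlier-flagged spots were left out, spots of a probe averaged as log2, and the 75th percentile of each array subtracted. A probe was taken as above background where 50% or more of its spots on that array were marked so, and entered the test when all 3 arrays of a group met this and unflagged values stood on at least 2 arrays of each group. The files hold accessions, not gene names: 28331 probes were named through the gene table of GRCm38.p6. The brightest probe stood for a gene. Of the 24213 features, LDL and saline were compared with limma 3.58.1 in R 4.3.3 (two-sided moderated test, Benjamini-Hochberg over all features), checked on simulated data.

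The members, gene lists and tests were chosen with earlier results of these data known. Named by rule were the 9 factors, their measured paralogs, the 4 lowest p-values of each other list of related genes, and members that passed. Cell type markers are given as lists. Some genes that the rule would name are not reported here. Alternatives were other normalizations, the authors' values, other background filters, other ways to combine probes, blocks for slide row or replicate number, robust trended variances, single slide rows and each array left out. Normexp used median spot signals, since mean signals are not in the files used.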

Additional observations from a re-analysis of the deposited data

How the results depend on the processing

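No member passed in any of the 18 alternative settings with a test, and the median over the 9 factors stayed between -0.11 and -0.023, with -0.11 to -0.031 when 1 array was left out. Foxo3, Sox1, Sox2 and Sox9 kept their sign in all 19 alternatives, some of which (the blocks, the filters and the variance setting) leave a fold as it is by construction. Reversed values were 0.018 (Nr2e1) and 0.010 (Lhx2) with median scaling; 0.010 (Nr2e1) and -0.022 (Emx2) in slide row 1; and 0.039 (Lhx2), 0.012 (Nr2f6), 0.00903 (Nfic), -0.018 (Sox10), -0.30 (Emx2os) and -0.066 (Sox1ot) in slide row 2, which holds 1 array of each group. With 1 array left out, ranges that crossed 0 among the 9 factors, their paralogs and the noncoding transcripts were -0.35 to 0.036 (Pax6), -0.095 to 0.10 (Nr2e1), -0.084 to 0.076 (Emx2), -0.21 to 0.13 (Lhx2), -0.27 to 0.066 (Nfix), -0.15 to 0.021 (Foxo1), -0.092 to 0.14 (Sox10), -0.16 to 0.32 (Emx2os) and -0.080 to 0.093 (Sox1ot). The count of 5 features higher became 10 with normexp and quantile, 8 with median scaling, also 8 in the authors' values, 16 with trended robust variances, and 0 without the filter, in slide row 1 and with a slide row block. The 28 lower became 15 under the slide row block, and 0 without the filter and in slide row 1. Between 0 and 7 were higher and between 0 and 25 lower when 1 array was dropped, with 0 of both when the array dropped was saline replicate 3 or LDL replicate 2 or 3 (1556, 994 and 1380 features with an unadjusted p under 0.05 in limma, against 1777 without the filter and 870 in slide row 1). Dropping saline replicate 2 left 0 higher and 3 lower, while 3768 features had an unadjusted p under 0.05 in limma, against 1814 with all arrays. Fewer arrays leave fewer degrees of freedom. Otherwise the cause was not tested. The replicate block left 3 higher and 10 lower, and under it the 9 factors had adjusted p between 0.716 and 0.997. Across genes, arrays with one number deviated from their group means with correlations of 0.23, -0.081 and 0.20 for replicates 1 to 3. Replicates 1 and 3 correlated best with their own number, and replicates 2 did not. Pairing was therefore not assumed in the main fit, and the replicate block is given beside it.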
